A study of Homo sapiens with 6 samples.

Results

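The genes described here are ACSL4 and its relatives in fatty acid activation: the long-chain acyl-CoA synthetases ACSL1, ACSL3, ACSL4, ACSL5 and ACSL6, the acyl-CoA synthetase family member ACSF2, and the phospholipid acyltransferase LPCAT3. They were taken by gene symbol, which gave 7 of the 40173 genes and 91 of the 151453 transcripts with a gene in the deposited count table. All 7 genes and 44 of the 91 transcripts had enough counts to be tested, among 19987 genes and 66609 transcripts tested in all. RNA of HCT116 cells, a human colorectal cancer line, was sequenced with paired-end reads in 3 MOCK and 3 CYGB libraries, which the submitters describe as biological replicates. MOCK cells carried a control lentivirus and are labelled wild type, and CYGB cells carried a lentivirus with the FLAG-tagged coding region of CYGB (cytoglobin, a globin that binds oxygen). Both were puromycin-selected cell populations of passage 15-20 kept in RPMI medium with serum, and no separate transductions are described, so p-values measure the spread between these libraries only. The comparison of both groups asks which genes differed when CYGB was overexpressed, in a study concerned with ferroptosis.

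Long-chain acyl-CoA synthetases join a free fatty acid to coenzyme A, the step that commits it to oxidation, to storage or to membrane lipids. ACSL4 prefers long polyunsaturated fatty acids such as arachidonic acid, and LPCAT3 places their acyl groups into membrane phospholipids. Peroxidation of these phospholipids is the event that kills cells in ferroptosis, which is why ACSL4 and LPCAT3 are known as genes that make cells sensitive to it, whereas ACSL3 is known for activating monounsaturated fatty acids and for lipid droplet formation.

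A few sequences show what separated the transcripts on which the results below turn. ACSL4 mRNAs encode a long or a short form of the enzyme, and ENST00000469796 (long form) differs in its coding region from ENST00000348502 (short form) by 123 bases, or 41 codons, at its start. The stretch lies on the minus strand of GRCh38 at chrX:109683361-109683486, and the capitals mark the start codon of the long form and, at the end, that of the short form.
ACSL4 long-form start: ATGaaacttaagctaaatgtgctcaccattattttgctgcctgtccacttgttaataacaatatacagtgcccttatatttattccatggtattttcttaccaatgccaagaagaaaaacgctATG
In ACSF2, the coding transcripts ENST00000427954 and ENST00000300441 differ in their coding region by an exon of 75 bases (25 codons) on the plus strand at chr17:50426905-50426979. It is shown in capitals between 15 bases of the exons on either side, and below it the junction of ENST00000300441, which joins these flanks directly.
ACSF2 with the exon: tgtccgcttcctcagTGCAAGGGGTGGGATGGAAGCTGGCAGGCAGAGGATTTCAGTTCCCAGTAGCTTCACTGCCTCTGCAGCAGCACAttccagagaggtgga
ACSF2 without the exon: tgtccgcttcctcagttccagagaggtgga
A second exon, of 129 bases (43 codons) at chr17:50461242-50461370, is part of both of these transcripts and is missing from ENST00000504392, the most abundant ACSF2 transcript. It is shown whole, in capitals.
ACSF2 second exon: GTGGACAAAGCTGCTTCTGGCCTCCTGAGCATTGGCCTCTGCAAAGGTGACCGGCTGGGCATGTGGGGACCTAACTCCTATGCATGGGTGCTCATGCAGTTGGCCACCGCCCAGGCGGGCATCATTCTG

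The MOCK libraries held 58138393 to 65252059 counts in all and the CYGB libraries 61601071 to 66035266. CYGB itself, which checks the labels, had 10, 28 and 34 counts in MOCK replicates 1 to 3 against 34935, 27681 and 32333 in CYGB replicates 1 to 3. Marker levels are given in CPM, here counts scaled to the summed gene counts of each library, without TMM factors. Of 8 colon epithelial markers in the table, VIL1 and LGALS4 were under 1 CPM in every library. The others brought the summed level to 4102 to 4588 CPM, and a further marker, CDX1, was not analysed here. Markers of endothelial cells, leukocytes and hepatocytes summed to less than 1 CPM in every library, and those of fibroblasts to 44.4 to 52.9 CPM, nearly all of it COL1A1.

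ACSL4 was the member with a difference between the groups. Summed over its transcripts, ACSL4 (ENSG00000068366, chromosome X of GRCh38 from 109624244 to 109733403 on the minus strand) was found with 430, 519 and 422 counts in MOCK replicates 1 to 3 against 1550, 1843 and 851 in CYGB replicates 1 to 3. Mean levels were 9.04 ± 0.814 CPM (MOCK) and 27.7 ± 10.4 CPM (CYGB; SD, n = 3), here and below in counts scaled to library size with TMM factors. Every CYGB library lay above every MOCK library, and CYGB replicate 3, at 16.2 CPM, lay apart from replicates 1 and 2 at 30.7 and 36.3 CPM. The ratio of CYGB to MOCK was 3.06 (95% interval 1.82 to 5.15), a log2 fold change of 1.62 (standard error 0.31). ACSL4 passed the threshold of the study's methods, which asks for p at or below 0.01 before adjustment and a ratio of at least 2 or at most 0.5 (edgeR's quasi-likelihood test, unadjusted p = 0.0018). It did not pass after Benjamini-Hochberg adjustment over the 19987 genes (edgeR, adjusted p = 0.844). By unadjusted p it ranked at place 40 of all tested genes, and by log2 fold change at place 145. The adjusted p depended on the tool, being 0.00078 with DESeq2 and 0.0141 with edgeR's exact test on the same counts. More RNA per cell and more cells with the RNA cannot be told apart in these bulk libraries.

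Of the 7 members, 1 passed the threshold of the methods, against 0.565% of all tested genes, and 1 had groups that did not overlap, against 11% of all tested genes. With edgeR's quasi-likelihood test 0 members had an adjusted p under 0.05, where 0.055% of all genes did. Before adjustment, 1 member was under 0.05, against 4.54% of all genes. DESeq2 placed 1.32% of all genes past the threshold and 0.54% under an adjusted p of 0.05, and edgeR's exact test placed 0.32% there, each time with ACSL4 as the only member. The median log2 fold change was -0.05 over the members and -0.01 over all tested genes.

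**Figure D1:**
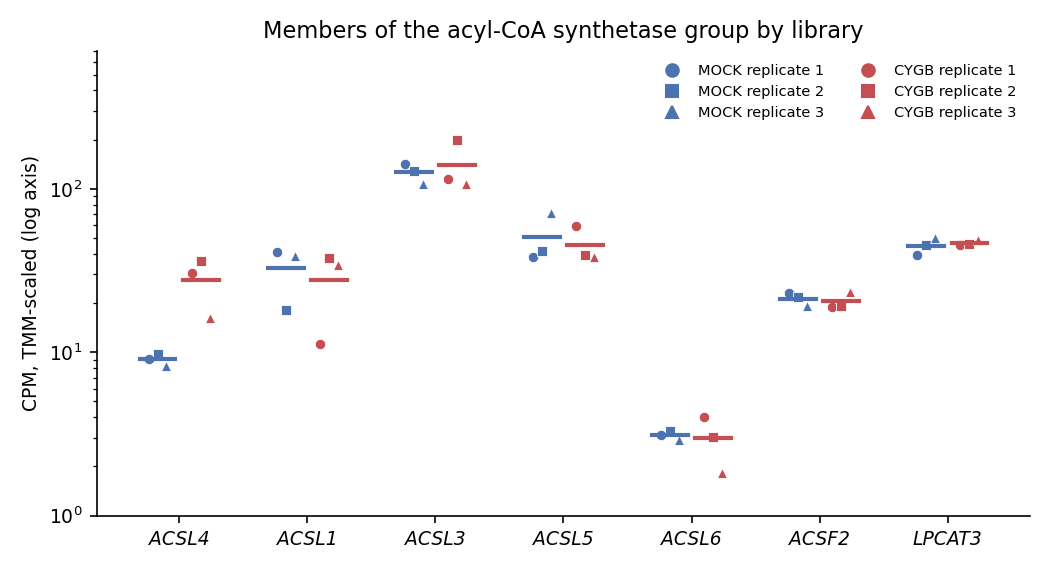
Level of each member in each library, in CPM scaled by TMM on a log axis, with MOCK in blue and CYGB in red, symbols for the replicates and bars for the group means (n = 3). For ACSL4 all 3 red points lie above all 3 blue points, while the groups overlap for the other 6 genes.

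The other ACSL genes did not pass either threshold. ACSL3 (ENSG00000123983, chromosome 2 from 222860934 to 222944639), the ACSL most tied to lipid droplets, had 6671, 6817 and 5547 counts in MOCK against 5833, 10111 and 5651 in CYGB replicates 1 to 3. CYGB replicate 2 was the highest of the 6 libraries and the remaining ones overlapped. The log2 fold change of ACSL3 was 0.16 (95% interval -0.47 to 0.79; adjusted p = 0.976, edgeR's quasi-likelihood test). ACSL1 (ENSG00000151726, chromosome 4 from 184755595 to 184826818), which feeds fatty acids to oxidation and to triglyceride synthesis depending on the tissue, varied most within groups. It had 1927, 954 and 1998 counts in MOCK against 564, 1923 and 1788 in CYGB replicates 1 to 3, so that 1 library of each group lay far below its companions. Its log2 fold change of -0.23 had the widest interval of the 7 members, from -1.498 to 1.03, which includes a doubling and a fall below the lower ratio of the threshold (adjusted p = 0.986, edgeR's quasi-likelihood test).

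ACSL5 (ENSG00000197142, chromosome 10 from 112374018 to 112428380) is the ACSL known for its abundance in intestinal epithelium. Its counts were 1805, 2215 and 3684 in MOCK and 2974, 2010 and 2022 in CYGB replicates 1 to 3, which overlapped. The difference, -0.15 on the log2 scale, had an interval from -0.87 to 0.57 (adjusted p = 0.981, edgeR's quasi-likelihood test). ACSL6 (ENSG00000164398, chromosome 5 from 131949973 to 132012243), known chiefly from brain, had 148, 173 and 150 counts in MOCK against 204, 155 and 96 in CYGB. Its groups overlapped as well, with a log2 fold change of -0.06 (interval -0.80 to 0.67; adjusted p = 0.996, edgeR's quasi-likelihood test).

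The steps beyond the ACSL genes were measured more tightly. ACSF2 (ENSG00000167107, chromosome 17 from 50426158 to 50474845), a mitochondrial synthetase for medium-chain fatty acids that is also named in ferroptosis work, had 1090, 1144 and 990 counts in MOCK against 957, 982 and 1224 in CYGB. LPCAT3 (ENSG00000111684, chromosome 12 from 6976186 to 7018510), the acyltransferase that follows ACSL4, had 1850, 2399 and 2571 counts in MOCK against 2274, 2350 and 2548 in CYGB. In both genes the groups overlapped. The log2 fold change was -0.05 for ACSF2 (interval -0.40 to 0.29; adjusted p = 0.988, edgeR's quasi-likelihood test) and 0.06 for LPCAT3 (interval -0.24 to 0.35; adjusted p = 0.986, by the same test). These were the narrowest intervals among the members, and both excluded a doubling.

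**Figure D2:**
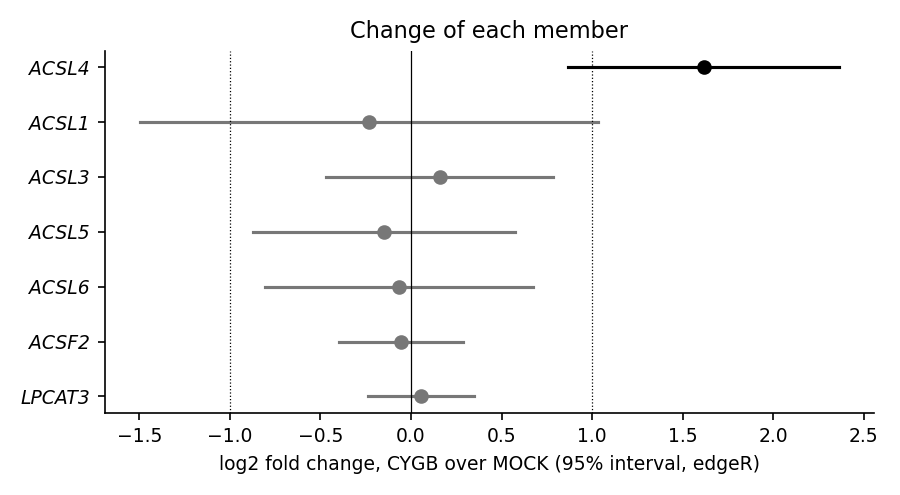
Log2 fold change of each member, CYGB over MOCK, with its 95% interval from edgeR's quasi-likelihood fit, and dotted lines at a doubling and at the lower ratio of the threshold. ACSL4 (black) is at 1.62 with an interval from 0.87 to 2.37, and the intervals of the other 6 members include 0.

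Levels of different genes were compared per length, as TPM (counts divided by the GENCODE 29 transcript length and scaled to the same total in each library). ACSL3 was the most abundant member, at 57.3 ± 6.82 TPM in MOCK and 63.1 ± 22.2 TPM in CYGB (SD, n = 3). LPCAT3 followed at 43.2 ± 6.01 and 43.6 ± 1.43 TPM, ACSL5 at 40.4 ± 8.99 and 37.2 ± 6.29 TPM, and ACSF2 at 38.7 ± 1.68 and 35.9 ± 1.80 TPM. ACSL1 stood at 17.9 ± 6.48 and 16.1 ± 8.52 TPM, ACSL4 at 7.02 ± 0.459 and 14.5 ± 3.85 TPM, and ACSL6 at 2.76 ± 1.12 and 1.99 ± 0.377 TPM. The order of the means was the same in both groups. LPCAT3 and ACSL5, and ACSL5 and ACSF2, overlapped between neighbours in both groups. ACSL1 and ACSL4 were separate in MOCK, where the lowest ACSL1 library had 10.4 TPM and the highest ACSL4 library 7.53 TPM, and overlapped in CYGB.

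ACSL4 reached 7.53, 6.64 and 6.89 TPM in MOCK and 16.6, 16.95 and 10.1 TPM in CYGB replicates 1 to 3. The groups stayed apart on this scale too, but the ratio of CYGB to MOCK means was 2.07, against 3.06 in the fit to counts. Mean levels were 1.80 TPM in MOCK and 7.03 TPM in CYGB for ENST00000348502, and 1.03 and 3.18 TPM for ENST00000469796. Together this pair held most of the ACSL4 counts, as described further on. In MOCK the highest mean was that of ENST00000502391, a coding transcript of 802 bases, at 2.03 TPM against 1.44 TPM in CYGB.

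Among the 5 ACSL genes, ACSL4 held 5.80, 5.74 and 5.29% of the summed TPM in MOCK and 13.6, 10.3 and 8.92% in CYGB replicates 1 to 3, or 5.61 ± 0.279% and 11.0 ± 2.42% (SD, n = 3). The shares of the other 4 overlapped between groups, at 45.9 ± 6.89 and 46.6 ± 6.37% for ACSL3, 32.2 ± 6.42 and 28.7 ± 7.25% for ACSL5, 14.1 ± 4.41 and 12.2 ± 6.74% for ACSL1, and 2.21 ± 0.877 and 1.55 ± 0.501% for ACSL6. The sum of the 5 genes overlapped as well, at 125 ± 8.37 TPM in MOCK and 133 ± 27.5 TPM in CYGB. In raw counts the ACSL4 share was 4.12 ± 0.665% in MOCK and 11.2 ± 2.89% in CYGB. No test was made on shares, since an exact permutation test of 3 against 3 libraries cannot go below p = 0.1.

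**Figure D3:**
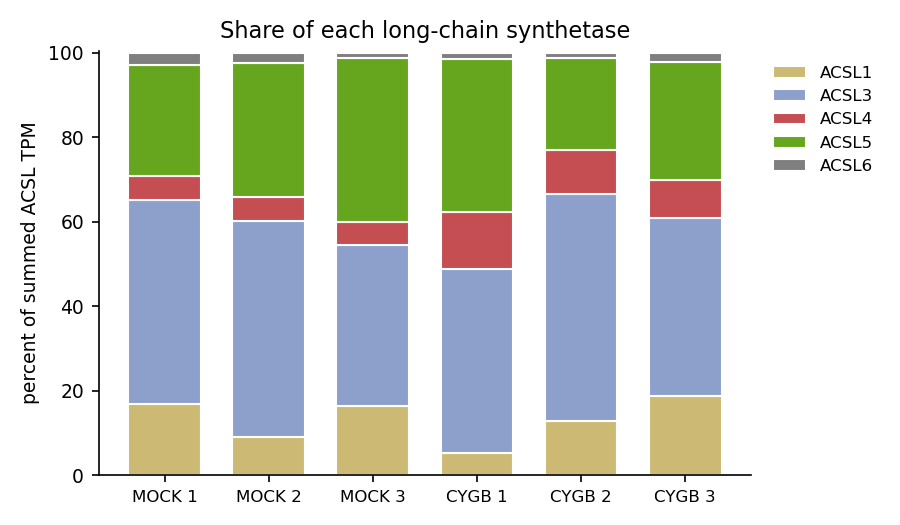
Share of each ACSL gene in the summed TPM of the 5 ACSL genes, as a percent, with 1 stacked bar per library. The ACSL4 segment (red) is 5.29 to 5.80% in the MOCK libraries and 8.92 to 13.6% in the CYGB libraries.

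A pair of full-length coding transcripts carried the ACSL4 difference. ENST00000348502, which encodes the short form, had 225, 259 and 228 counts in MOCK against 890, 1393 and 445 in CYGB replicates 1 to 3. ENST00000469796, which encodes the long form, had 120, 193 and 113 counts in MOCK against 570, 394 and 328 in CYGB. Each CYGB library was above each MOCK library for both transcripts, and their order among CYGB replicates 1 and 2 was opposite. Both passed the threshold of the methods, with log2 fold changes of 1.94 (standard error 0.46, unadjusted p = 0.00646) and 1.61 (standard error 0.37, unadjusted p = 0.00528, edgeR's quasi-likelihood test for both). Neither had an adjusted p under 0.05 by that test over 66609 transcripts (adjusted p = 0.755 and 0.688). The adjusted p again depended on the tool, being 0.0278 and 0.00872 with DESeq2 and 0.329 and 0.538 with edgeR's exact test. Both fell short of the threshold when MOCK replicate 1 or 3 or CYGB replicate 1 or 2 was left out, and ENST00000348502 also without MOCK replicate 2. The threshold was passed by 1.02% of all tested transcripts and by 4 of the 44 tested transcripts of the members. Of these, 3 were higher in CYGB, against 0.54% of all tested transcripts, and 1 was lower, against 0.482%.

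The remaining 8 ACSL4 transcripts summed to 85, 67 and 81 counts in MOCK against 90, 56 and 78 in CYGB replicates 1 to 3. Their summed counts thus overlapped between the groups. Their share of the gene went from 12.9 to 19.8% in MOCK to 3.04 to 9.17% in CYGB. Among the 8, ENST00000502391 had 43, 46 and 39 counts in MOCK against 24, 37 and 29 in CYGB. Its groups did not overlap, as for 10.4% of all tested transcripts. ENST00000504980, which was not tested, had 0, 0 and 0 counts in MOCK against 44, 0 and 6 in CYGB. Full-length coding transcripts of the long or short form held 80.5, 87.3 and 82.0% of the ACSL4 counts in MOCK and 94.3, 97.0 and 91.0% in CYGB. Coding transcripts with the long-form start held 44.2, 46.2 and 43.1% in MOCK and 41.7, 23.4 and 44.9% in CYGB, where replicate 2 stood apart and the other libraries were within a narrow range. Only 3.3% of the 150-base windows of ENST00000348502 and 2.9% of those of ENST00000469796 occur in no other ACSL4 transcript, so the division between the forms rests on short stretches of sequence, and the gene sum does not depend on it.

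**Figure D4:**
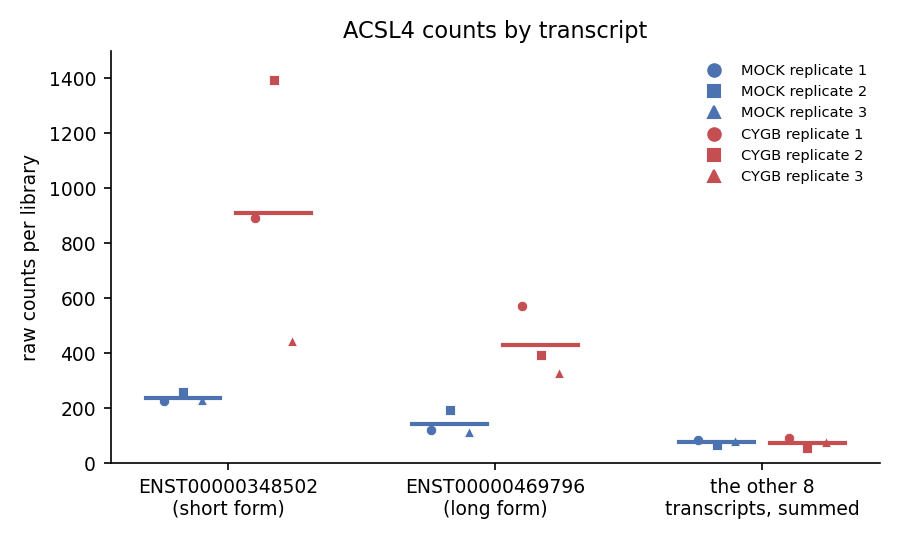
Raw counts of ACSL4 transcripts in each library, for the short-form transcript ENST00000348502, the long-form transcript ENST00000469796 and the other 8 transcripts summed, with group means as bars (n = 3). Both named transcripts are higher in all CYGB libraries (red), and the summed remainder lies between 56 and 90 counts in both groups.

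In ACSF2, whose sum overlapped between the groups, 2 transcripts passed the threshold of the methods in opposite directions. ENST00000300441, a coding transcript that joins the printed flanks directly, had 1 count in each MOCK library and 146, 211 and 122 counts in CYGB replicates 1 to 3. ENST00000427954, which holds the exon of 75 bases, had 40, 67 and 41 counts in MOCK against 2, 1 and 4 in CYGB. The first was thus present in CYGB and nearly absent from MOCK libraries, and the second the reverse. For ENST00000300441 the ratio of summed counts, scaled to library size, was 158 with a 95% counting interval of 53.6 to 767 (exact binomial, counting error only), and its fitted log2 fold change reached 7.15 (standard error 0.46; adjusted p = 0.0486, edgeR's quasi-likelihood test), a level of adjusted p under 0.05 that 0.015% of all tested transcripts had. With 1 count a library in MOCK, the fitted value depends on the prior count. This call was lost with any of the 6 libraries left out, at an adjusted p of 0.1 to 0.241 by the same test. The log2 fold change of ENST00000427954 was -4.33 (standard error 0.58, unadjusted p = 0.000394, adjusted p = 0.207, by the same test). With DESeq2 its adjusted p was 8.05e-07 and that of ENST00000300441 1.63e-11, and with edgeR's exact test 3.07e-06 and 3.73e-11.

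Summed, this pair of transcripts had 41, 68 and 42 counts in MOCK against 148, 212 and 126 in CYGB, which did not overlap. Transcripts with the exon of 129 bases made up 4.13, 6.29 and 5.05% of the ACSF2 counts in MOCK and 16.0, 22.9 and 10.8% in CYGB. Those with the exon of 75 bases held 3.67, 5.86 and 4.14% in MOCK and 0.209, 0.102 and 0.327% in CYGB. The junction without that exon occurs in 4 ACSF2 transcripts, ENST00000504392 and ENST00000300441 among them. Together they had 411, 704 and 632 counts in MOCK against 556, 665 and 717 in CYGB, which overlapped. These shares and sums are descriptions with no test. ENST00000504392, which lacks the exon of 129 bases, had 347, 661 and 558 counts in MOCK against 353, 388 and 575 in CYGB and overlapped. No 150-base window of ENST00000300441 is unique among the ACSF2 transcripts (0%), against 10.6% for ENST00000427954, so its counts rest on how reads shared by several transcripts were divided. How that was done is not given in the sources used here.

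**Figure D5:**
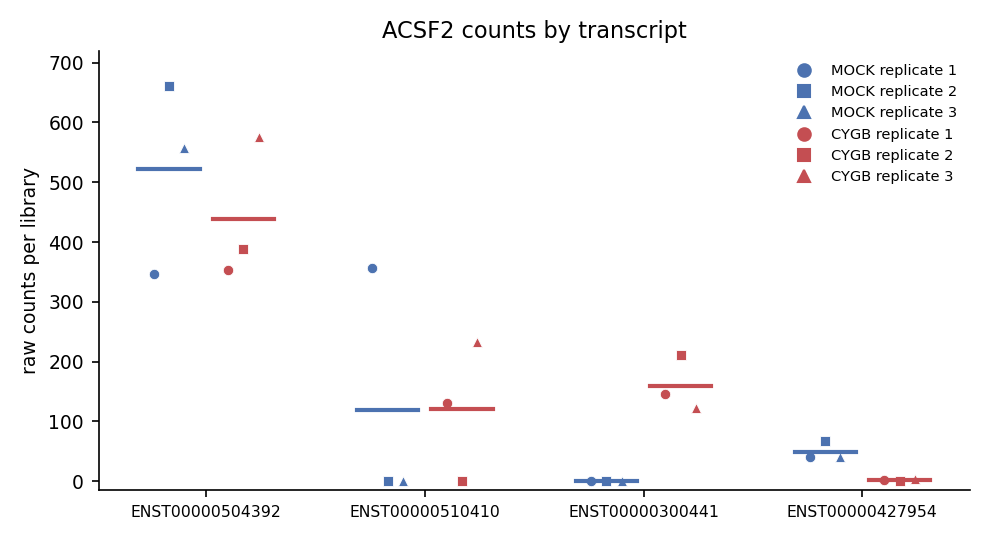
Raw counts of 4 ACSF2 transcripts in each library, with group means as bars (n = 3). ENST00000300441 has 1 count in each MOCK library and 122 to 211 in the CYGB libraries, ENST00000427954 has 40 to 67 and 1 to 4, and the groups overlap for the other 2 transcripts.

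No other member had a transcript past the threshold. For ACSL3, ENST00000357430 had 4656, 4657 and 3924 counts in MOCK against 4138, 8644 and 3817 in CYGB, and ENST00000392066, with the same coding length of 2160 bases, had 1926, 2083 and 1537 against 1627, 1300 and 1786 counts. The excess of ACSL3 in CYGB replicate 2 thus lay in the first transcript, of which 45.4% of the windows are unique. ENST00000281455 held most ACSL1 counts, with 1639, 796 and 1755 in MOCK and 492, 1806 and 971 in CYGB. Most ACSL5 counts were assigned to 3 of its 9 transcripts, which have the same coding length of 2049 bases. ENST00000393081 had 624, 1513 and 1387 counts in MOCK against 785, 1284 and 1394 in CYGB, and ENST00000354655 had 439, 112 and 1023 against 1371, 136 and 300 counts. The third, ENST00000354273, had 319, 103 and 814 counts in MOCK against 300, 87 and 94 in CYGB. These transcripts varied more between libraries of 1 group than the ACSL5 sum did.

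LPCAT3 has a single protein-coding transcript in the table, ENST00000261407, with 1283, 1707 and 1824 counts in MOCK against 1664, 1721 and 1198 in CYGB. ENST00000535479, annotated as a target of nonsense-mediated decay, had 448, 532 and 566 counts in MOCK against 467, 491 and 1210 in CYGB replicates 1 to 3. The protein-coding share of LPCAT3 was 69.3 to 71.2% in MOCK and 73.2% in CYGB replicates 1 and 2, and 47.0% in CYGB replicate 3, a library in which the gene sum was not low. Protein-coding transcripts held 96.5 to 99.2% of the ACSL4 counts and 98.5 to 99.3% of the ACSL3 counts. In ACSF2 they held 40.5 to 67.4%.

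The genes around these enzymes were read from 7 lists of 90 genes, of which 75 were tested and 1 was not analysed here. With all 6 libraries none passed the threshold of the methods in either direction, where 0.28% of all tested genes were higher and 0.285% lower. By edgeR's quasi-likelihood test 0 of the 75 had an adjusted p under 0.05. Before adjustment, 5 of the 75 were under 0.05, near the 4.54% of all tested genes, with unadjusted p = 0.0119 for CPT1A, 0.0126 for ACSBG2, 0.0198 for LCLAT1, 0.0295 for SCD and 0.0496 for PPARD (edgeR's quasi-likelihood test). Groups did not overlap for 5 genes that were higher and 3 that were lower in CYGB, against 5.72 and 5.31% of all tested genes. The median log2 fold change over the 75 genes was -0.01. The values that follow in parentheses are log2 fold changes from this edgeR fit, for the genes with the lowest p-values of each list, and each had an adjusted p of 0.963.

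Of the other acyl-CoA synthetases 14 of 21 were tested, led by ACSBG2, a bubblegum-family synthetase (-0.84), and SLC27A4, a fatty acid transport protein with synthetase activity (0.39). Thioesterases, which split acyl-CoA again, had 6 of 11 genes tested, led by THEM4 (-0.46) and ACOT7 (0.10). Among the acyltransferases and phospholipases that act in the same remodelling of phospholipids as LPCAT3, all 17 were tested. LCLAT1, a lysocardiolipin acyltransferase, had 29.1, 30.3 and 34.0 CPM in MOCK against 41.0, 44.6 and 36.6 CPM in CYGB (0.39), and PLA2G15, a lysosomal phospholipase, had 12.9, 7.40 and 8.30 against 23.3, 24.4 and 8.78 CPM (0.98). LCLAT1 was separate between groups and PLA2G15 was not, CYGB replicate 3 being at the level of MOCK. Without that library PLA2G15 passed the threshold of the methods, at 1.33 on the log2 scale (unadjusted p = 0.00465, adjusted p = 0.847, edgeR's quasi-likelihood test).

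The desaturases and elongases, which set how unsaturated and long the substrates are, had 11 of 12 genes tested. SCD, the desaturase that makes monounsaturated fatty acids, had 1616, 1761 and 1673 CPM in MOCK against 1485, 1451 and 1543 CPM in CYGB replicates 1 to 3, without overlap (-0.17), and FADS2, a desaturase of the polyunsaturated pathway, stood at 0.37. Of the 14 acyl-CoA users and carriers, all tested, CPT1A, which takes acyl groups into mitochondria for oxidation, was at 179, 180 and 196 CPM in MOCK and at 215, 224 and 221 CPM in CYGB. These groups did not overlap either (0.25), while DBI, an acyl-CoA binding protein, was at -0.16. Lipoxygenases and related oxidoreductases had 7 of 8 genes tested, with CYB5R1 at 0.22 and ALOX12 at -0.48. For the PPAR fatty acid receptors and their coactivators 6 of 7 were tested, with PPARD at 0.53 and PPARA at -0.40.

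Some members overlap other genes, and whether strand was used in counting is not given in the sources used here. KCNE5 lies within ACSL4 on the same strand and had 22, 44 and 24 counts in MOCK against 11, 16 and 24 in CYGB, far fewer than ACSL4. EMG1, opposite to LPCAT3, had 3752, 4441 and 4460 counts in MOCK against 5284, 4568 and 4456 in CYGB, and ZDHHC6, opposite to ACSL5, had 4029 to 4665 counts in all 6 libraries. Counts of LPCAT3 and ACSL5 that come from reads shared with these partners could not be told apart from their own. CHAD, opposite to ACSF2, had 71 to 148 counts.

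By Pearson correlation of log2(CPM + 1) over the 6 libraries, the genes most like ACSL4 among 9946 genes averaging 10 CPM or more were AC009022.1 (r = 0.997), MYO5B (0.993), FAM57A (0.977), ASPM (0.965) and RBM45 (0.963). This likeness is a description, since the points share their groups. MYO5B, a motor of apical membrane traffic, had 27.6, 27.3 and 23.5 CPM in MOCK against 67.9, 81.3 and 47.3 CPM in CYGB replicates 1 to 3, and FAM57A had 5.95, 7.63 and 7.42 against 22.3, 21.5 and 13.2 CPM. Since these 5 genes were chosen for their likeness to ACSL4 over the same libraries, no test of them between the groups is given. Over the same libraries the correlation with ACSL4 was 0.47 for ACSL3, 0.11 for LPCAT3, -0.12 for ACSL5, -0.33 for ACSL1, -0.48 for ACSF2 and 0.31 for YAP1. YAP1 had 191, 44.0 and 169 CPM in MOCK against 166, 175 and 154 CPM in CYGB replicates 1 to 3. Its groups overlapped, and MOCK replicate 2 lay far below the other libraries.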

How the data were processed

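RNA-seq of 3 MOCK and 3 CYGB HCT116 libraries was analysed. The table the authors deposited holds unnormalized raw counts of each transcript. Libraries were made with the NEBNext Ultra kit, and the submitters' processing notes name HISAT2, DESeq2 and hg19. The positions in the table are those of GRCh38, as 99.5% of the 151393 transcripts found in GENCODE 29 have the same position there. Transcripts without a gene (21225 of 172678, with 18.6 to 19.5% of the counts of each library) were left out.

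Transcript counts were summed per gene, passed through filterByExpr (minimum count 10), scaled by TMM and fitted in edgeR 4.0.16 (glmQLFit, glmQLFTest, R 4.3.3), CYGB against MOCK without a block, per gene and per transcript. Adjusted p-values are Benjamini-Hochberg values over all features tested. DESeq2 1.42.0 and other settings were alternatives. Lengths, types and sequences were taken from GENCODE 29, and windows of 150 bases were compared among the transcripts of a gene. The steps were run on simulated counts with changes larger than that of ACSL4, and had to return their direction. How well smaller changes are found was not tested. Biological coefficients of variation (edgeR, common) came to 36.6% over genes and 78.9% over transcripts. Pairs of libraries differed by more than sampling noise, so each was counted once. Intervals on summed counts cover counting error only.

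The members and lists were chosen with earlier results of these data known. Named were all members, their most abundant transcript, transcripts past the threshold or with at least 20% of the counts of a gene in a library, the 2 smallest p-values of each list, and the 5 genes most like ACSL4. YAP1 was named outside this rule. The overlapping genes were named after their values were seen.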

Additional observations from a re-analysis of the deposited data

How the results depend on the processing

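ACSL4 stayed past the threshold of the methods in all 14 alternatives, with log2 fold changes of 1.37 to 1.92 (1.37 to 1.89 with a library left out) and adjusted p-values of 0.00078 to 0.999. With DESeq2 and with edgeR's exact test 1 member, ACSL4, had an adjusted p under 0.05, where edgeR's quasi-likelihood test gave 0. Directions of the other members were not stable. With a library left out the log2 fold change ranged from -0.15 to 0.0047 for ACSF2, from -0.53 to 0.14 for ACSL1, from -0.18 to 0.32 for ACSL3, from -0.37 to 0.19 for ACSL5, from -0.35 to 0.19 for ACSL6 and from -0.034 to 0.14 for LPCAT3. The libraries whose omission turned the sign were MOCK replicate 1 for ACSF2 and LPCAT3, MOCK replicate 3 for ACSL5, and CYGB replicates 1, 2 and 3 for ACSL1, ACSL3 and ACSL6, respectively. By the most abundant transcript only, ACSL6 was at 0.17 and LPCAT3 at -0.082. Of the 4 transcripts past the threshold, 2 to 4 remained with a library left out, the 2 ACSF2 transcripts each time. Both ACSL4 transcripts were lost without MOCK replicates 1 or 3 or CYGB replicates 1 or 2, and ENST00000348502 without MOCK replicate 2. Among the list genes, where the main test called 0, PLA2G15 passed without CYGB replicate 3 (1 gene, log2 fold change 1.33, unadjusted p = 0.00465, edgeR). ACSS2 passed by its most abundant transcript only (1 gene, 1.52, unadjusted p = 6.83e-05, adjusted p = 0.0888, edgeR). Summed over its transcripts, ACSS2 was flat, at -0.0024 on the log2 scale (unadjusted p = 0.981, edgeR). Its summed levels overlapped between the groups, at 48.1 to 54.4 CPM. With the replicate number as a block, 2 member transcripts passed, both of ACSF2, and ACSL4 had a log2 fold change of 1.54 (unadjusted p = 0.00292, edgeR). Deviations of same-numbered libraries correlated at 0.00672 to 0.0324, so no pairing by number was evident. Libraries of unlike number were not compared in this way. Without a filter and with transcripts without a gene included, ENST00000300441 had an adjusted p of 0.114 and 0.0708 (edgeR). Over all genes, 113 passed the threshold in the main test, 263 with DESeq2, 256 by the exact test of edgeR, 62 where genes averaged 50 counts or more, 177 without MOCK replicate 3 and 268 with transcripts without a gene included. Genes with an adjusted p under 0.05 numbered 11, 108, 64, 11, 13 and 6 in these settings, 6 and 7 without MOCK replicate 1 and CYGB replicate 3, and 0 with the block. Of the 91 member transcripts 44 had enough counts to be tested, against 66609 of all 151453 transcripts with a gene.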

Other observations

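Several transcripts of the members were counted in some libraries of a group and not in others. ENST00000510410 of ACSF2, annotated as a target of nonsense-mediated decay, had 356, 0 and 0 counts in MOCK replicates 1 to 3 against 130, 0 and 233 in CYGB replicates 1 to 3. ENST00000507295 of ACSL1 had 81 counts in MOCK replicate 3, 389 in CYGB replicate 3 and 0 in the other 4 libraries. In ACSL6, ENST00000379264 had 80, 74 and 129 counts in MOCK against 185, 133 and 1 in CYGB, and in CYGB replicate 3, where it was nearly absent, ENST00000296869 had 38 counts and the retained-intron transcript ENST00000493861 had 34. ENST00000493861 also had 75 counts in MOCK replicate 2 and at most 5 in the other 4 libraries, and ENST00000434099 had 38 counts in MOCK replicate 1 and 0 elsewhere. For ACSL6, protein-coding transcripts held 45.7% of the counts in MOCK replicate 2 and 47.9% in CYGB replicate 3, against 88.5 to 98.0% in the other 4 libraries.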
